A study of Homo sapiens with 6 samples.

Results

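Growth factor signalling through the kinase ERK switches on its own brakes, and 10 of the genes it switches on were followed here on 6 expression arrays of SKOV-3 cells. The genes were the dual specificity phosphatases DUSP1, DUSP4, DUSP5 and DUSP6, the Sprouty family genes SPRY2, SPRY4 and SPRED1, the ERK-induced gene PHLDA1, and the ETS transcription factors ETV4 and ETV5. Every probe whose single platform symbol is one of these names was taken, which gave 18 of the 47314 probes. Of these, 14 were bright enough to test (detection p below 0.05 for 3 or more arrays, counted without regard to group), and each of the 10 genes kept at least 1 probe. SKOV-3 is an established human ovarian cancer cell line. The samples were 3 arrays of cells transfected with siRNA against HBO1 (siHBO1), a histone acetyltransferase whose gene is KAT7, and 3 arrays of cells transfected with a scramble siRNA (siCtrl), all harvested for total RNA after 48 h. All 6 samples carried a transfected siRNA, no untransfected cells were analysed here, and the labels do not give the siRNA sequences. Cells were grown in 12-well plates, and transcript levels from such bulk samples cannot tell fewer expressing cells from less RNA per cell. The question addressed is how these transcripts stood after HBO1 knockdown.

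In the ERK pathway, receptors such as ERBB2 and EGFR activate RAS, which activates the RAF, MEK and ERK kinases in turn. Active ERK raises the transcription of genes that damp the pathway, so that their transcript levels are widely read as a measure of pathway output. DUSP proteins remove the activating phosphates from ERK and related kinases, Sprouty and SPRED proteins block signalling upstream of RAF, and ETV4 and ETV5 carry the signal on to their own target genes.

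Arrays were alike in overall signal. Mean signal ranged from 643 to 744 on the siHBO1 arrays and from 674 to 730 on the siCtrl arrays, between 42.2% and 44.3% of probes were detected per array, and log2 values of the 20744 kept probes correlated at 0.975 to 0.993 between arrays of one group and at 0.972 to 0.989 between groups, across probes, which are not independent replicates. KAT7, the targeted gene, had log2 values of 4.77, 5.22 and 5.45 on siHBO1 1 to 3, against 5.93, 6.49 and 6.45 on siCtrl 1 to 3, so every array stood on the side its label gives (log2 change -1.14, SE 0.25, limma adjusted p 0.999). It was detected on 1 of the siHBO1 arrays and on all 3 of the siCtrl arrays, and the log2 change was -0.36 without background correction (-1.34 with array weights). A two-sided exact permutation test gave p = 0.1 and cannot go lower with 3 arrays a group. Of 12 markers named for SKOV-3 and ovarian carcinoma, 9 were detected at p under 0.01 on all 6 arrays, among them ERBB2, KRT8, KRT18, PAX8 and VIM, and CDH1 and MUC16 on 0 of the 6. The labels do not say whether replicates were separate cultures, and the spread that the p-values rest on may therefore be technical.

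The 10 ERK feedback genes did not separate the siHBO1 from the siCtrl arrays, but they differed widely between arrays of the same group, and they did so together. On siHBO1 1, siHBO1 2 and siCtrl 1 all 10 genes lay above their group's mean, and on siHBO1 3, siCtrl 2 and siCtrl 3 all 10 lay below it. The difference between the groups was smaller than the standard deviation within either group for 10 of the 10 genes, taking the probe with the highest mean over the 6 arrays as a gene's leading probe. Limma called 0 of the 14 probes at an adjusted p under 0.05 (the share called among all 20744 tested probes was 0% higher and 0% lower), and at an unadjusted p under 0.05 it called 0 of the 14, against 3.73% of all probes. The groups overlapped for all 14 probes, whereas 9.98% of all probes had groups that did not overlap, 5.43% with all siHBO1 arrays above and 4.55% with all siHBO1 arrays below.

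**Figure D1:**
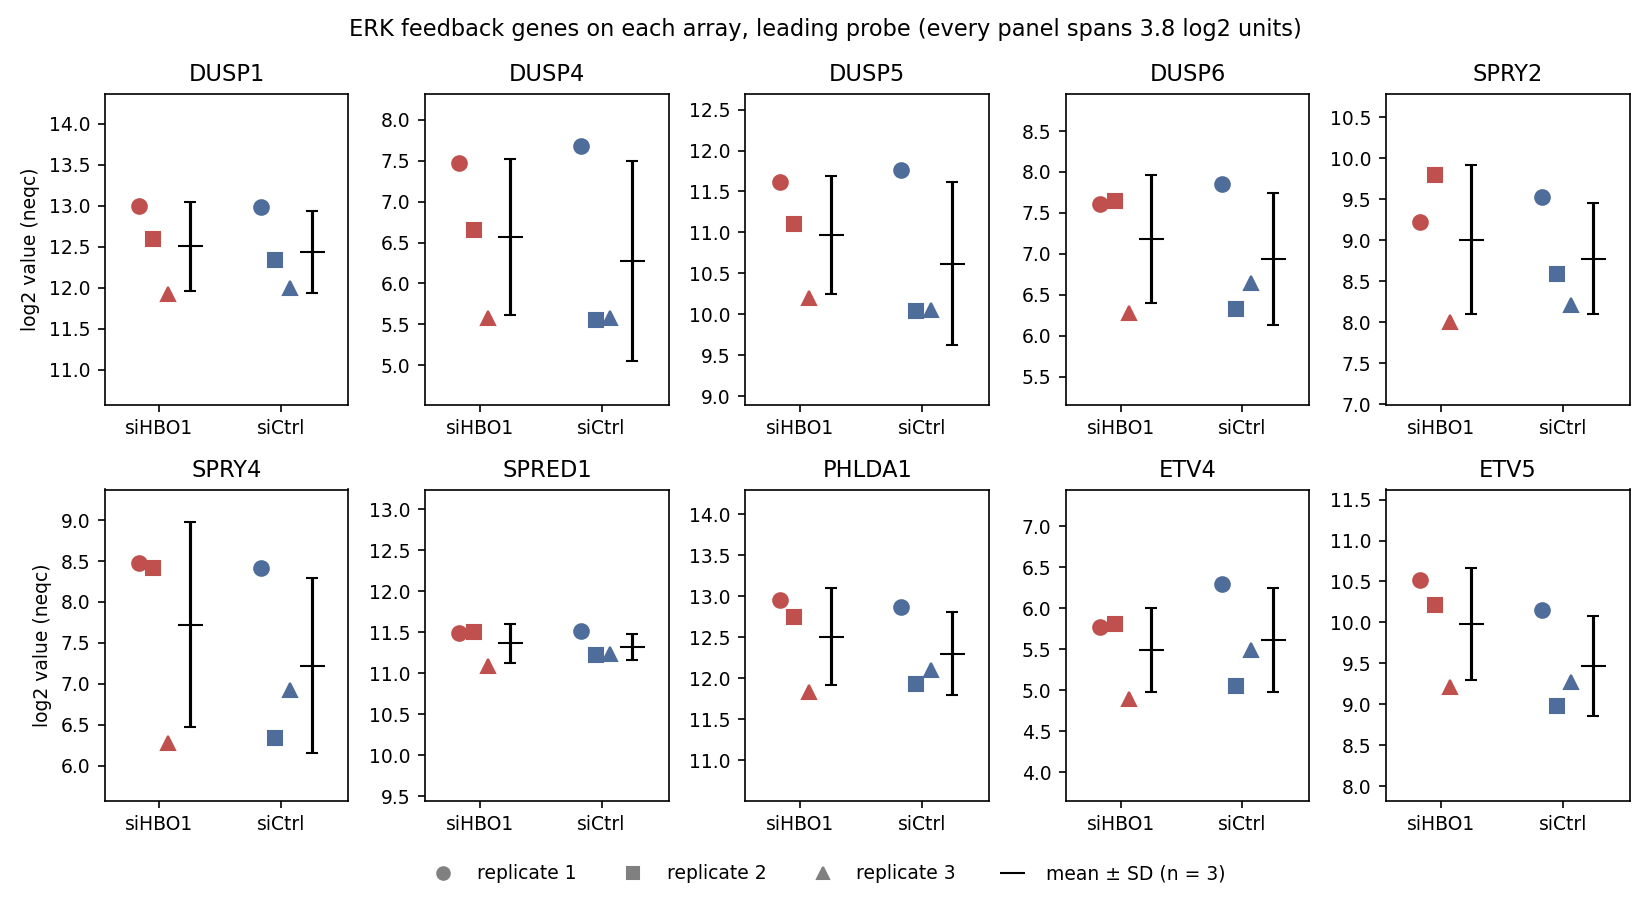
Log2 values (vertical axis) of the leading probe of each of the 10 genes on the 3 siHBO1 arrays (red, left) and the 3 siCtrl arrays (blue, right), with symbols for the replicate numbers and black bars for the mean ± SD of each group (n = 3). Panels share a span, so that SPRED1 is seen to vary least over the arrays and SPRY4 and DUSP4 most, and in every panel the groups overlap.

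Of the phosphatases, DUSP6 is the cytoplasmic enzyme specific for ERK and the member most often used as a readout of the pathway. Its leading probe had log2 values of 7.61, 7.65 and 6.27 on siHBO1 1 to 3, against 7.85, 6.33 and 6.64 on siCtrl 1 to 3. The lowest of the 6 arrays was siHBO1 3 and the highest was siCtrl 1. The siHBO1 mean was 7.18 ± 0.78 and the siCtrl mean 6.94 ± 0.81 (SD, n = 3 each), a log2 change of 0.24 (SE 0.47, 95% interval -0.82 to 1.29). A further probe of DUSP6 was detected on 0 of the 6 arrays and was not tested.

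DUSP1, DUSP4 and DUSP5 are nuclear phosphatases. DUSP1, which also acts on the stress kinases JNK and p38, had log2 values of 13.00, 12.59 and 11.92 on siHBO1 1 to 3, against 12.98, 12.34 and 12.00 on siCtrl 1 to 3. The 2 groups covered almost the same span, and the log2 change was 0.06 (SE 0.30, 95% interval -0.62 to 0.75). DUSP4, which acts on ERK and JNK, stood at 7.48, 6.65 and 5.58 on siHBO1 1 to 3, against 7.68, 5.56 and 5.58 on siCtrl 1 to 3. The array siCtrl 1 was highest, and the other two siCtrl arrays and siHBO1 3 were nearly equal at the bottom. On these background-corrected values the range was 4.35-fold among the siCtrl arrays alone and 3.73-fold among the siHBO1 arrays. The log2 change between the groups was 0.30 (SE 0.62, 95% interval -1.12 to 1.71). DUSP5, a phosphatase specific for ERK, showed the same arrangement, with 11.62, 11.10 and 10.20 on siHBO1 1 to 3, against 11.77, 10.04 and 10.05 on siCtrl 1 to 3 (log2 change 0.35, SE 0.49, 95% interval -0.76 to 1.46). A further probe of DUSP4 was detected on 0 of the 6 arrays.

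The Sprouty proteins SPRY2 and SPRY4 restrain signalling from receptor tyrosine kinases to RAS. On the background-corrected values SPRY4 had the widest range of the leading probes. Its log2 values were 8.48, 8.42 and 6.28 on siHBO1 1 to 3, against 8.42, 6.34 and 6.92 on siCtrl 1 to 3. Both groups held arrays at the top and at the bottom of this span. Its siHBO1 mean was 7.72 ± 1.25 and its siCtrl mean 7.22 ± 1.07 (SD, n = 3 each), a log2 change of 0.50 (SE 0.66, 95% interval of the fold change 0.50 to 3.99). A second SPRY4 probe, detected on 2 of 3 siHBO1 and 1 of 3 siCtrl arrays, gave 6.35, 5.87 and 4.84 on siHBO1 1 to 3, against 5.73, 4.81 and 4.89 on siCtrl 1 to 3. It had the smallest unadjusted p of the 14 probes, 0.209 in limma, with a log2 change of 0.54 (SE 0.40), and was the only one of the 14 whose difference was not below the standard deviation of both groups. Of the other 2 SPRY4 probes, one was detected on 0 arrays and one on siCtrl 3 alone, so neither was tested.

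SPRY2 had log2 values of 9.22, 9.80 and 8.01 on siHBO1 1 to 3, against 9.53, 8.59 and 8.21 on siCtrl 1 to 3, and its highest and its lowest value were both from siHBO1 arrays (log2 change 0.23, SE 0.47, 95% interval -0.82 to 1.29). SPRED1, which brings the RAS inactivator neurofibromin to the membrane, had 11.50, 11.50 and 11.09 on siHBO1 1 to 3, against 11.51, 11.23 and 11.23 on siCtrl 1 to 3. It followed the same order of arrays over a far smaller span, 1.34-fold from the highest to the lowest array. Its log2 change was also the most closely bounded of the 10 genes, at 0.04 (SE 0.15, 95% interval -0.31 to 0.39), and was -0.020 under median scaling.

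PHLDA1 encodes a pleckstrin homology-like domain protein whose transcript is induced by ERK. Its leading probe had log2 values of 12.95, 12.74 and 11.83 on siHBO1 1 to 3, against 12.87, 11.93 and 12.10 on siCtrl 1 to 3, and its second probe had 8.62, 8.08 and 7.46, against 8.78, 7.78 and 8.02. Both probes placed the same 3 arrays highest, yet their log2 changes had opposite signs, 0.21 (SE 0.31) for the leading and -0.14 (SE 0.34) for the second probe, both smaller than their errors.

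ETV4 and ETV5 belong to the PEA3 group of ETS transcription factors. The leading probe of ETV5 had log2 values of 10.51, 10.21 and 9.21 on siHBO1 1 to 3, against 10.15, 8.98 and 9.27 on siCtrl 1 to 3, and its second probe had 8.18, 7.90 and 6.94, against 7.90, 6.86 and 6.89. The siHBO1 mean of the leading probe was 9.98 ± 0.68 and the siCtrl mean 9.47 ± 0.61 (SD, n = 3 each). Its log2 change was 0.51 (SE 0.38, 95% interval -0.35 to 1.37) and ran from 0.24 to 0.89 with an array left out, the highest without siHBO1 3, and the second probe gave 0.45 (SE 0.38). Neither passed the test, with a limma adjusted p of 0.999 for both. ETV4 was dim, with its leading probe detected on 2 of 3 siHBO1 and 2 of 3 siCtrl arrays at log2 values of 5.77, 5.80 and 4.90 on siHBO1 1 to 3, against 6.30, 5.05 and 5.49 on siCtrl 1 to 3. Its 2 probes also differed in sign, with log2 changes of -0.12 (SE 0.36) for the leading probe and 0.20 (SE 0.37) for the other, which was detected on 2 of 3 siHBO1 and 1 of 3 siCtrl arrays. That other probe averaged 5.62 ± 0.66 on the siHBO1 arrays and 5.42 ± 0.50 on the siCtrl arrays (SD, n = 3 each).

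Over the 14 probes the log2 change was positive for 12 and negative for 2, where 50.1% of all tested probes were positive. These 14 values are not separate pieces of evidence, since the same arrays were high for all of them. The median over the 10 leading probes was 0.24, and that over the leading probes of all 11917 named genes was 0.01. For the leading probes of DUSP4, DUSP5, DUSP6, SPRY2, SPRY4 and ETV5 the intervals reach past a log2 change of 1, so a 2-fold increase lies within them.

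**Figure D2:**
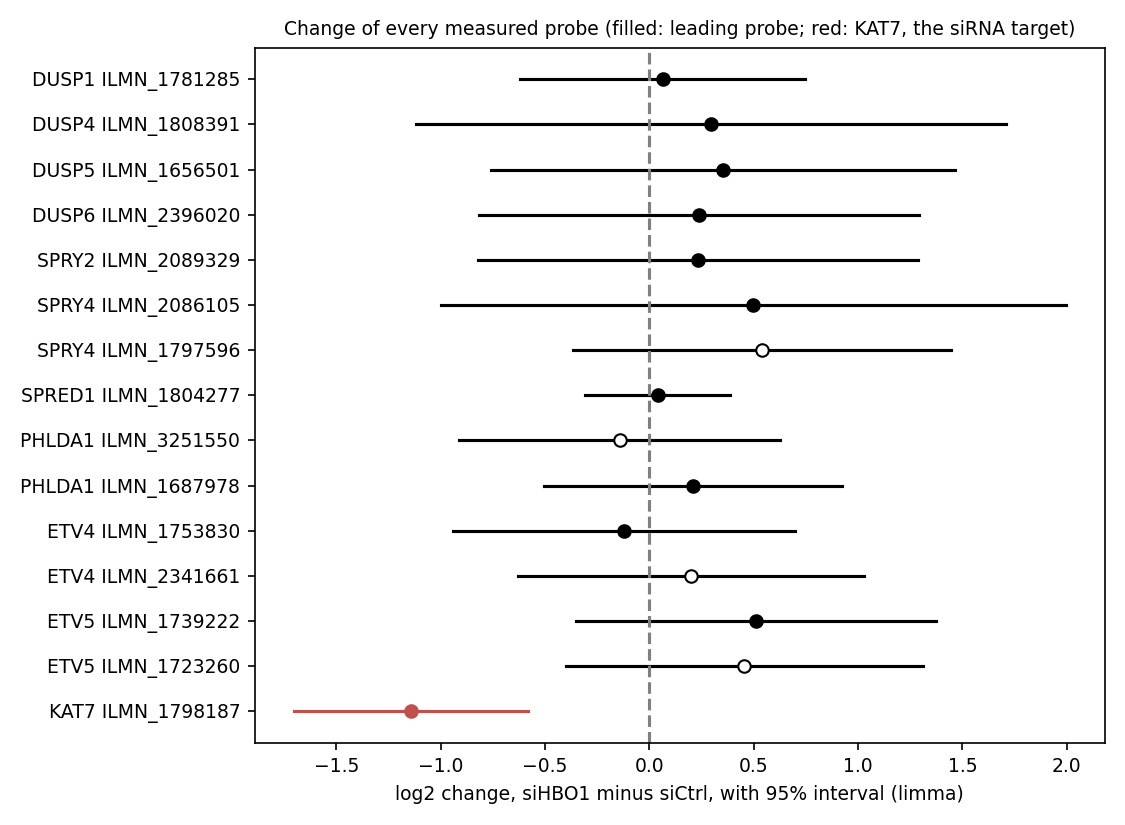
Log2 change of siHBO1 minus siCtrl (horizontal axis) with its 95% interval from limma, for each of the 14 tested probes of the ERK feedback genes (black, filled for the leading probe of a gene) and for KAT7 (red). All 14 black intervals cross 0, from the narrow one of SPRED1 to the wide ones of SPRY4 and DUSP4, and the KAT7 interval of -1.70 to -0.58 does not.

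The order of the arrays was nearly the same from gene to gene. For 14 of the 14 probes the 3 highest arrays were siHBO1 1, siHBO1 2 and siCtrl 1, in varying order, and siHBO1 3, siCtrl 2 and siCtrl 3 were the 3 lowest. By leading probe, 11.1% of all 11917 named genes had the same 3 highest arrays. A further 13.5% had the reverse, with these as their 3 lowest arrays, so the split was not particular to the feedback genes. Among the 10 leading probes the highest array was siCtrl 1 for 5 genes, siHBO1 1 for 4 and siHBO1 2 for SPRY2, and the lowest was siHBO1 3 for 7 genes and siCtrl 2 for the other 3, DUSP4, DUSP5 and ETV5. The step between the third and the fourth highest array was 2.82-fold for SPRY4, 2.10-fold for DUSP4 and 1.96-fold for DUSP6, and was smallest for DUSP1, at 1.19-fold. The same 3 arrays were highest for all 14 probes without background correction, with a larger offset, under median scaling and in the authors' processed values, and for 12 of the 14 in the deposited signal before any normalization. KAT7 had another order, with its 3 siCtrl arrays highest. Because these values fall into 2 sets of 3 arrays, with 1 siCtrl array among the high and 1 siHBO1 array among the low ones, no correlation between members over the 6 arrays is given as a test, and the sets are not groups of the study.

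Set against each group's own mean, the 10 genes deviated by a median of 0.47 on siHBO1 1, 0.23 on siHBO1 2 and -0.77 on siHBO1 3, and by 0.72 on siCtrl 1, -0.53 on siCtrl 2 and -0.30 on siCtrl 3. Between 47.6% and 51.9% of all kept probes lay above their group mean on each array. Quantile normalization gives every array the same distribution and so holds this share nearly even. It therefore cannot show how many other genes followed the pattern, in the same or the opposite direction. Overall signal did not sort the arrays in the same way: the mean was 643, 650 and 713 on siHBO1 1, siHBO1 2 and siCtrl 1, against 744, 730 and 674 on siHBO1 3, siCtrl 2 and siCtrl 3. By replicate number, arrays 1 were high and arrays 3 low in both groups for all 10 genes. Array 2 was high for siHBO1 and low for siCtrl. The labels do not say what arrays of the same number share. No slide, scan or culture batch is given in the labels, so the part of a batch in this pattern was not tested.

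**Figure D3:**
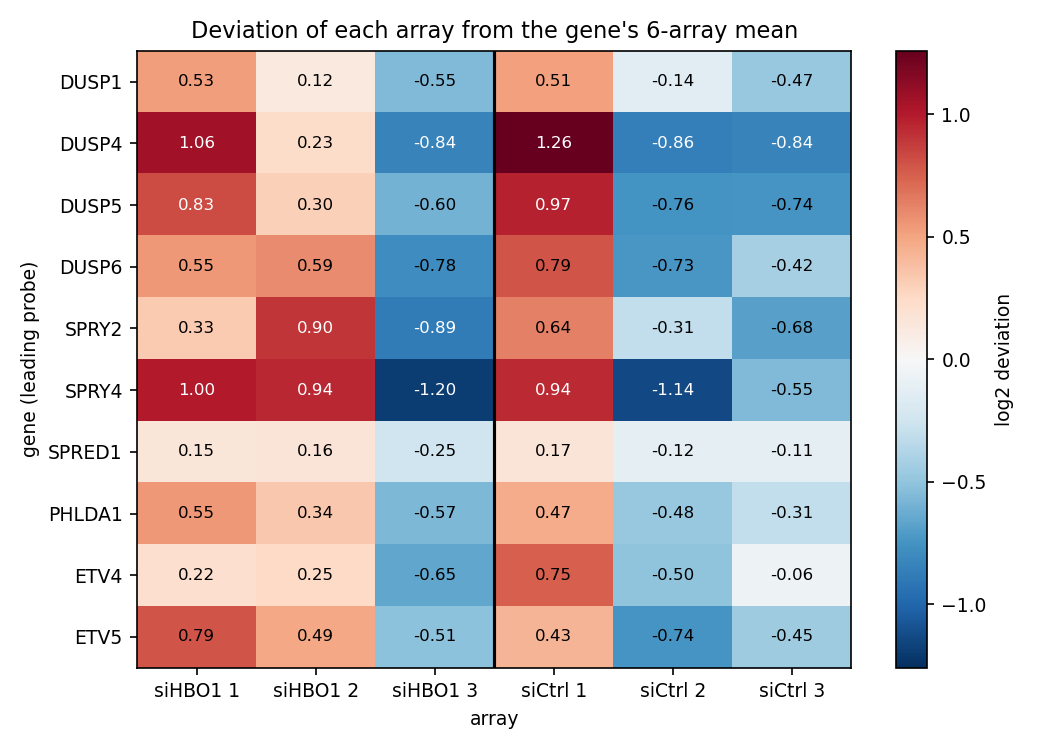
Deviation of each array (columns, siHBO1 left of the line and siCtrl right) from a gene's mean over the 6 arrays, in log2 units, for the leading probe of each of the 10 genes (rows). Columns siHBO1 1, siHBO1 2 and siCtrl 1 are positive in every row and the other three are negative in every row, with values from -1.20 (SPRY4 on siHBO1 3) to 1.26 (DUSP4 on siCtrl 1).

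The range over the 6 arrays was more than 2-fold for 9 of the 10 genes, and SPRED1 was the exception. Ranges ran from 1.34-fold for SPRED1 to 4.59-fold for SPRY4, with a median of 1.56 on the log2 scale, against a median of 0.64 over all kept probes. For 7 of the 10 genes the range was above that of 90% of the kept probes. SPRY4 (99.2%), DUSP4 (99.1%) and SPRY2 (98.2%) stood highest, and SPRED1 exceeded 21.9% of them. Within-group standard deviations behaved alike, with a median of 0.72 over the 10 genes and 0.24 over all kept probes, and so did the standard errors of the log2 change, with medians of 0.42 and 0.20. The wide range was also present without background correction, where the median range was 0.92 for the 14 probes and 0.36 for all kept probes. Which gene ranged most depended on that correction, because it expands the fold range of dim probes. The deposited signal ran from 217 to 492 for SPRY4 and from 171 to 345 for DUSP4. For the brighter DUSP5 it ran from 1136 to 3836.

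**Figure D4:**
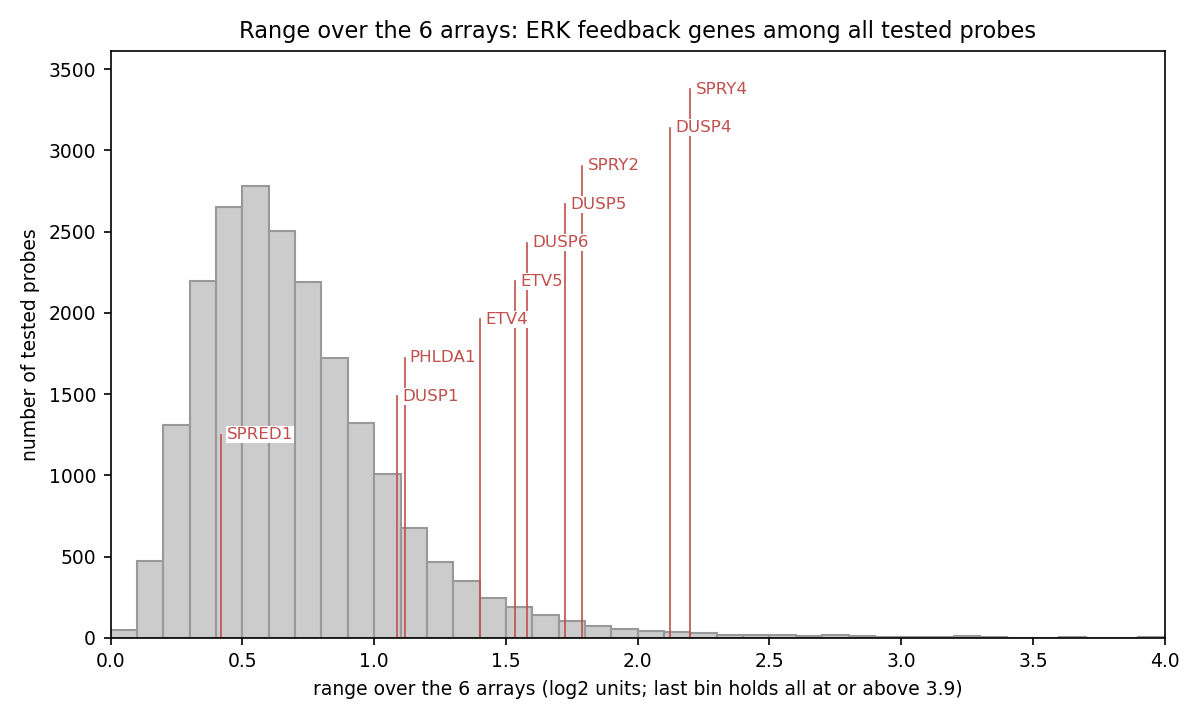
Histogram of the range over the 6 arrays (horizontal axis, log2 units) for all 20744 tested probes (vertical axis, number of probes), with red lines at the leading probes of the 10 ERK feedback genes. SPRED1 lies left of the median of 0.64 and the other 9 genes lie to the right, up to 2.20 for SPRY4.

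The difference between the groups moved with single arrays. Without siHBO1 3, all 14 probes had a positive log2 change, with a median of 0.71 and values from 0.15 to 1.22. Of them 4 reached an unadjusted p under 0.05, against 4.86% of all probes in that fit. These were the 2 tested probes each of SPRY4 and ETV5, so they stand for only 2 genes. The limma adjusted p was 0.897 at the lowest. Without siCtrl 1, all 14 were again positive, with a median of 0.65. The probe of DUSP5 and the leading probe of ETV5, 2 of the 14, reached an unadjusted p under 0.05, against 2.97% of all probes. Without siHBO1 1, siCtrl 2 or siCtrl 3, the medians were 0.016, 0.017 and 0.078, with 8, 9 and 8 of the 14 positive, and without siHBO1 2 the median was 0.056, with 10 positive. SPRY4 shows this most, with a log2 change of 0.50 over all arrays, 1.22 without siHBO1 3, 1.09 without siCtrl 1 and 0.055 without siCtrl 2. DUSP5 was at 0.93 and DUSP4 at 1.00 without siCtrl 1. In none of these fits did a member pass an adjusted p under 0.05. The dim probes also depended on the background correction: without it the log2 change was 0.09 for DUSP4, 0.12 for DUSP6 and 0.31 for SPRY4.

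Promoter sequences are shown for 4 of the members that had high and low values on the same arrays, so that their start regions can be compared base by base. They are the 250 bases before the transcription start from RefSeq (GRCh38.p14). Windows of 6 of the 10 genes (8 windows) were used here, all 4 shown lie on the minus strand, and each is written in the direction of the gene. DUSP1 is chr5:172771196-172771445, DUSP6 chr12:89352502-89352751, SPRY2 chr13:80341127-80341376 and PHLDA1 chr12:76031777-76032026. Capitals mark the matches, on either strand, to the ETS binding sequence CGGAAG and the core of the cAMP response element TGACG (which lies inside the full element TGACGTCA). They also mark the AP-1 element TGANTCA and the CArG box bound by serum response factor. Of ETS sites only the exact sequence CGGAAG was searched, so other forms of the site are not marked.
DUSP1: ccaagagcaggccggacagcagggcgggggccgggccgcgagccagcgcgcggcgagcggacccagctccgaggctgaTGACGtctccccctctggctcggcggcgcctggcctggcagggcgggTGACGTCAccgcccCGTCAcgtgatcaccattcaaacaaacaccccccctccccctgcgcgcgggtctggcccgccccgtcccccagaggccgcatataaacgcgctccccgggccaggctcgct
DUSP6: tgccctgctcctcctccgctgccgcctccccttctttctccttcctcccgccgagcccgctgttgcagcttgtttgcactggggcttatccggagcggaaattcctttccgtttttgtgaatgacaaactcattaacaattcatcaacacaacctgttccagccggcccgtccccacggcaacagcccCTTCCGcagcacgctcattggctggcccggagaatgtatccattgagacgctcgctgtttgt
SPRY2: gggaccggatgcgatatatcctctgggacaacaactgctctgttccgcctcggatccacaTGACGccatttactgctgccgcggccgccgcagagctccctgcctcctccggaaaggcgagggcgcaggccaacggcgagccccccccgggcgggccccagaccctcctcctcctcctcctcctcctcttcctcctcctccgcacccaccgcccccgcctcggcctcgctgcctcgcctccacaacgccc
PHLDA1: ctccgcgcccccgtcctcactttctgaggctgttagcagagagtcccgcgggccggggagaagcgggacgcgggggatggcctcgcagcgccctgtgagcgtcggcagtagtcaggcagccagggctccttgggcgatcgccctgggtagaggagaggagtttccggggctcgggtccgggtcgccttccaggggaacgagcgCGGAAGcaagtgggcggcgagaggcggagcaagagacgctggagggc
Windows are counted by transcription start and not by gene, and SPRY2 has several, of which only the one shown held a motif. CGGAAG was found once in DUSP6 and once in PHLDA1, 2 of the 8 windows, and in 16.5% of the 35116 windows of all genes. TGACG was found at 4 places in DUSP1, once in SPRY2 and once in SPRY4, 3 of the 8 windows, and in 21.2% of all windows, while the full element TGACGTCA was found in DUSP1 and in 1.65% of all windows. Neither TGANTCA nor the CArG box was found in any of the 8 windows, against 6.57% and 1.16% of all windows. No one of these motifs was found in all 6 members with a window, though TGACG and CGGAAG each occurred in more than a single member.

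Genes whose values followed the members most closely were sought among the 11907 other named genes, by the Pearson correlation over the 6 arrays with the mean of the members' standardized values. This is a description over 6 points that fall into 2 sets of 3, without a test, and 473 of the other genes (3.97%) had r over 0.9, while 542 had r under -0.9. The 8 closest were FZD8, a Wnt receptor, E2F7, a repressor of the E2F family, CD59, an inhibitor of complement, CXCL8, the chemokine interleukin-8, the xanthine dehydrogenase gene XDH, ANGPTL4, an inhibitor of lipoprotein lipase, PINX1, a telomerase inhibitor, and GPR3, a receptor coupled to G proteins, with r from 0.992 to 0.996. CXCL8 had log2 values of 13.96, 13.76 and 11.46 on siHBO1 1 to 3, against 13.96, 11.96 and 12.16 on siCtrl 1 to 3, the same high and low arrays as SPRY4. Its log2 change was 0.36 (SE 0.69).

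The 12 measured NF-kB and cytokine genes had 9 positive and 3 negative log2 changes (median 0.17), and 0 passed the test, with TNF, an inflammatory cytokine, at 0.61 (SE 0.38) and the NF-kB subunit NFKB1 at -0.16 (SE 0.15) as the genes of smallest p. Their mean deviated on the same arrays in the same direction as the feedback genes, and 7 of the 12 had the same 3 highest arrays. Its mean lay 0.77 and 0.22 above the group mean on siHBO1 1 and siHBO1 2 and 0.98 below it on siHBO1 3, and 1.02 above it on siCtrl 1 and 0.57 and 0.45 below it on siCtrl 2 and siCtrl 3. The corresponding means of the 10 ERK feedback genes were 0.48, 0.32 and -0.80 on siHBO1 1 to 3, and 0.81, -0.46 and -0.35 on siCtrl 1 to 3.

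Other genes that ERK induces often had the same high arrays: siHBO1 1, siHBO1 2 and siCtrl 1 were the 3 highest for 15 of the 22 measured, against 11.1% of all named genes. This order was read from the feedback genes themselves, and the difference in share was not tested. Of 25 listed, 22 were measured, 0 passed the test, 18 had positive and 4 negative log2 changes, and the median was 0.14, with IER3 at 0.37 (SE 0.21) and SRF at 0.16 (SE 0.11) as the genes of smallest p. Their mean deviated by 0.42, 0.05 and -0.48 on siHBO1 1 to 3, and by 0.50, -0.26 and -0.24 on siCtrl 1 to 3. The next genes of this list, chosen after their values were seen, include 2 with this order and 2 without it. FOSL1, an AP-1 subunit, had log2 values of 9.94, 9.60 and 7.76 on siHBO1 1 to 3, against 9.84, 8.59 and 8.54 on siCtrl 1 to 3, and CCND1, which encodes cyclin D1, had 12.76, 12.95 and 10.80, against 12.86, 12.01 and 12.09. Both had the order of arrays seen for the feedback genes. The early response gene EGR1 did not, with 8.71, 8.89 and 9.24 on siHBO1 1 to 3, against 8.90, 9.79 and 9.05 on siCtrl 1 to 3. Nor did JUNB, an AP-1 subunit, with 8.02, 6.80 and 8.92 on siHBO1 1 to 3, against 7.56, 7.60 and 8.05 on siCtrl 1 to 3.

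The 21 measured genes of the cascade from adaptors to ERK and its kinase targets had a median range of 0.63, near the 0.60 of all named genes. Of them 16 had positive and 5 negative log2 changes (median 0.08), and 0 passed the test. SHC1, an adaptor that links receptors to RAS, had 12.05, 12.02 and 11.90 on siHBO1 1 to 3, against 11.74, 11.63 and 11.68 on siCtrl 1 to 3, so its groups did not overlap. Its log2 change was 0.31 (SE 0.10, limma adjusted p 0.999), another probe gave 0.15, and it was the only cascade gene with groups that did not overlap. MKNK2, a kinase activated by ERK, had a log2 change of 0.38 (SE 0.18, another probe 0.71). The ERK gene MAPK3 had log2 values of 11.67, 11.53 and 12.37 on siHBO1 1 to 3, against 11.51, 11.92 and 12.06 on siCtrl 1 to 3, so that siHBO1 3, low for the feedback genes, was its highest array. Its log2 change was 0.025 (SE 0.23), and another probe gave 0.36. Of the 21 genes, 3 had the 3 highest arrays of the feedback genes.

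Among 14 measured receptors and ligands, 4 had positive and 10 negative log2 changes (median -0.05), and 0 passed the test. ERBB2 had 13.02, 12.66 and 13.26 on siHBO1 1 to 3, against 12.81, 13.06 and 13.19 on siCtrl 1 to 3 (log2 change -0.044, SE 0.16, another probe 0.13), and EGFR had 9.23, 9.34 and 9.08, against 9.27, 9.37 and 9.05 (log2 change -0.015, SE 0.16, another probe 0.18). These 2 receptors did not have the array order of the feedback genes, but 4 of the 14 genes of the list did, and its median range was 0.91. Among those 4, named after their values were seen, were the EGFR ligands HBEGF and TGFA and the ephrin receptor EPHA2. HBEGF had 10.44, 10.24 and 8.01 on siHBO1 1 to 3, against 10.45, 8.71 and 8.49 on siCtrl 1 to 3, a wider range than that of any feedback gene, and its log2 change was 0.35 (SE 0.68). The smallest p in this list belonged to NRG1, a ligand of the ERBB receptors, at -0.56 (SE 0.25, another probe -0.38), and FGF2 at -0.25 (SE 0.16, another probe -0.38).

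Of 15 listed further dual specificity phosphatases, 14 were measured, 13 with positive and 1 with a negative log2 change, 0 past the test, with a median of 0.12 and a median range of 0.49. DUSP18 was at 0.40 (SE 0.22) and DUSP3, also known as VHR, at 0.16 (SE 0.12). Of 15 measured other inhibitors of RAS and ERK signalling, 8 were positive and 7 negative (median 0.024), 0 passed the test, and the genes of smallest p were PPP2R2A, a subunit of protein phosphatase 2A, at 0.34 (SE 0.22) and the RAS inactivator RASA2 at 0.25 (SE 0.21). SPRY1, a Sprouty gene chosen after its values were seen, had 9.62, 8.42 and 7.97 on siHBO1 1 to 3, against 9.57, 7.94 and 7.88 on siCtrl 1 to 3, with the same 3 arrays highest as SPRY2 and SPRY4. These arrays were the 3 highest for 6 of the 15 inhibitors and the 3 lowest for 3 of them. For the 14 further phosphatases the counts were 3 and 1. Whether these lists and the members differ in spread was not tested.

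**Figure D5:**
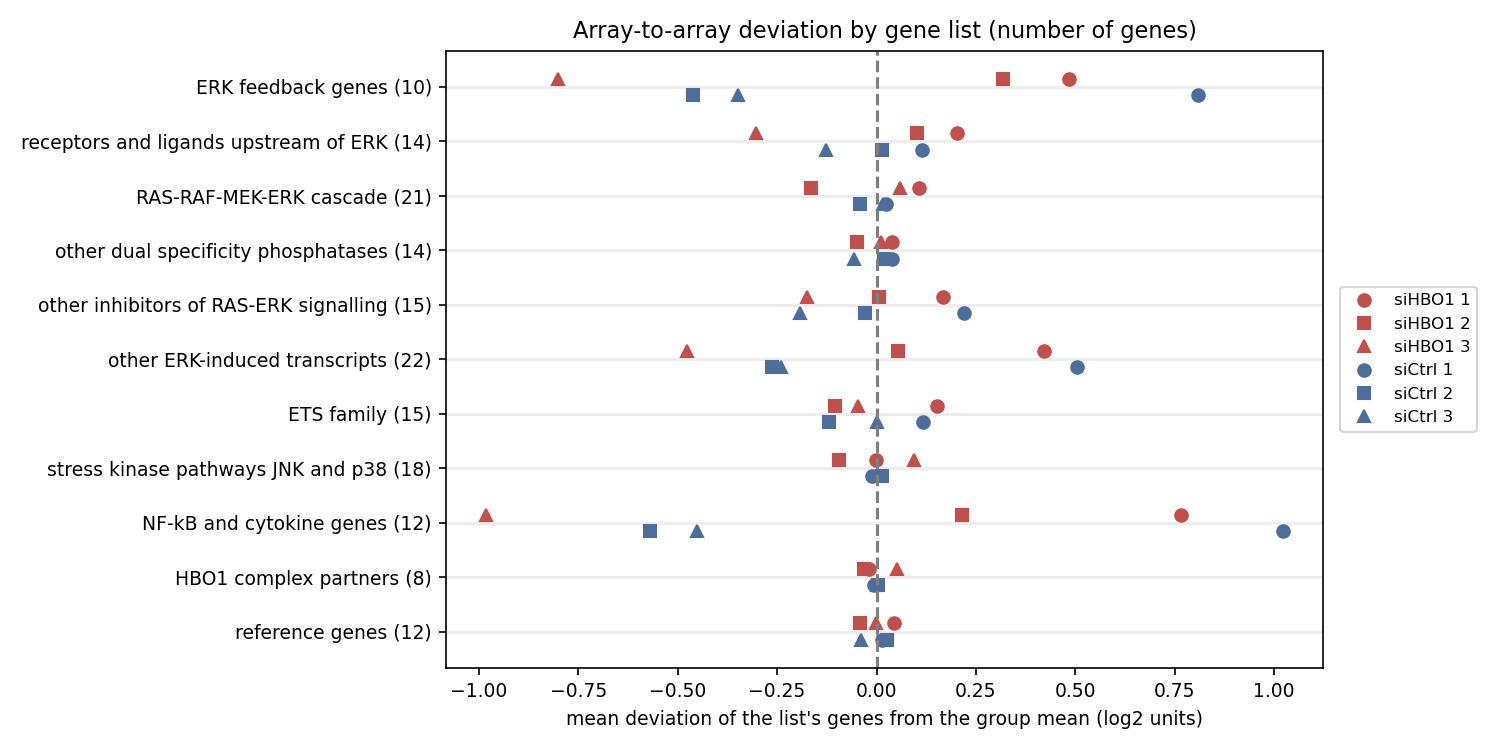
Mean deviation of a list's genes from the group mean on each array (horizontal axis, log2 units), for the ERK feedback genes and 10 other gene lists (rows, number of measured genes in brackets), with siHBO1 arrays in red above siCtrl arrays in blue and a symbol for each replicate number. The feedback genes, the other ERK-induced transcripts and the NF-kB and cytokine genes spread widely, while the cascade genes, the HBO1 complex partners and the reference genes stay within 0.17 of 0.

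Markers of other cell types were checked as well. Of 16 leukocyte, fibroblast and endothelial markers, 15 had a probe, 4 were detected at p under 0.01 on all 6 arrays (CD14, HLA-DRA, COL1A1 and COL1A2), and PTPRC, CD3E, LYZ, ITGAM, DCN, PECAM1, CDH5 and VWF were detected on 0. The mean log2 value of the 7 leukocyte markers with a probe was 5.79 to 5.83 on the siHBO1 arrays and 5.61 to 5.87 on the siCtrl arrays, and that of the 8 fibroblast and endothelial markers 5.56 to 6.41 and 5.41 to 5.90. COL1A1 was high where the feedback genes were low, with 8.71, 9.01 and 10.89 on siHBO1 1 to 3, against 7.85, 9.90 and 9.81 on siCtrl 1 to 3. Any part of it in the pattern of the feedback genes was not tested.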

How the data were processed

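Total RNA of 6 SKOV-3 samples was measured on Illumina bead arrays. Per the file headers, the deposited intensity is a linear bead signal per probe, with array means that differ, and the deposited p-value is a detection p-value. The authors' processed table is on a log2 scale as its values show: all arrays share 1 distribution (median 5.99), and ranks within an array equal those of its intensities (rank correlation 1). No centring by gene is visible, it holds levels and so has no direction, and no source used here gives its background method. The submitters' processing notes name GenomeStudio and lumi.

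Intensities were corrected and quantile-normalized with neqc (offset 16) in limma 3.58.1 with R 4.3.3 and statmod 1.5.0. Probes with 1 symbol (30110) were named, while 8 with several symbols and 17196 with no symbol stayed unnamed. Kept probes (20744) were fitted by lmFit and eBayes (trend on), with two-sided p-values and Benjamini-Hochberg adjustment over all of them. The code was tested on simulated data. Of each gene list the 2 genes with the smallest p are named, and the 8 genes closest in pattern. The members and lists were chosen with earlier results of these data known.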

Additional observations from a re-analysis of the deposited data

How the results depend on the processing

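Members passed an adjusted p under 0.05 in 0 of 17 alternative fits, with limma adjusted p of 0.657 at the lowest. All probes past that threshold numbered 0 in the reported fit (774 at an unadjusted p under 0.05), 1 with array weights and 4 with the replicate block, none of them a member. Unadjusted, 1808 probes passed with no detection filter, where all 47314 were tested instead of 20744. Of the 20744, 1573 passed with array weights and 1409 with the replicate block. With an array left out, from 351 (without siCtrl 3) to 2014 (without siHBO1 2) of them passed. Of the members, 3 passed unadjusted with array weights, 1 with the replicate block, and 0 to 4 with an array left out, where 0 to 4 had groups that did not overlap, against 15.8% to 27.1% of all probes in those fits. The sign turned in 20 of 231 member values, 17 of them with an array left out, and the cause was not tested in the other 3, which were SPRED1 under median scaling (-0.020) and, with array weights, the leading probe of ETV4 (0.18) and the second of PHLDA1 (0.18). With an array left out the log2 change ran from -0.19 to 0.36 for DUSP1, -0.16 to 1.00 for DUSP4, -0.069 to 0.69 for DUSP6, -0.16 to 0.73 for SPRY2, -0.031 to 0.18 for SPRED1, -0.012 to 0.55 and -0.42 to 0.15 for the 2 PHLDA1 probes and -0.41 to 0.22 for the leading ETV4 probe. With array weights all 14 probes were positive (median 0.55). The KAT7 change stayed below 0 in 16 alternatives (-1.34 to -0.36), a sign that leaving out, weighting or blocking arrays could not turn because its groups did not overlap. Detection on all 6 arrays removed its probe and 3 member probes. Replicate numbers were not used as pairs, because the deviations of arrays 1, 2 and 3 from their group means correlated between groups at 0.56, 0.02 and 0.46, not all over 0.1. For 4 of 6 arrays the best match was the array of the same number, which is only a hint. The planned correlations of DUSP6 with the other members were not run, since the arrays fall into 2 sets of 3. The order of arrays in the deposited signal was an alternative added after seeing the data. Dim probes limit the values of ETV4, DUSP4 and the second SPRY4 probe.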

Other observations

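Of 20 listed ETS family genes other than ETV4 and ETV5, 15 were measured, 7 with positive and 8 with negative log2 changes (median -0.018), and 0 passed the test. ELF4 had log2 values of 10.02, 9.72 and 9.83 on siHBO1 1 to 3, against 9.47, 9.49 and 9.28 on siCtrl 1 to 3, and ETV2 had 5.36, 4.97 and 5.29, against 5.62, 5.76 and 5.82. Their groups did not overlap, with log2 changes of 0.44 (SE 0.15) and -0.53 (SE 0.19) and a limma adjusted p of 0.999 for both, and 3 of the 15 genes had such groups, where 9.98% of all probes did. A further probe of ELK4, named after its value was seen, was at -0.76 (SE 0.20), while its leading probe was at 0.0063 (SE 0.26). Genes of the JNK and p38 pathways, the other kinases that DUSP1 acts on, had 18 measured members with a median log2 change of 0.04, 10 positive and 8 negative, 0 past the test, with MAP3K1 at -0.29 (SE 0.16) and TAB1 at 0.24 (SE 0.20).

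The 8 measured HBO1 complex partners had a median log2 change of 0.016, with JADE3 at -0.25 (SE 0.17) and JADE2 at 0.36 (SE 0.31), and the 12 measured reference genes one of 0.05, with B2M at -0.17 (SE 0.10, another probe 0.04) and GUSB at 0.18 (SE 0.14). Of both lists 0 genes passed the test.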
